A study of Mus musculus with 19 samples.

Results

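Tumours were compared with tumour-free liver taken from the same animals. The 7 libraries of this comparison, of 19 in the series, came from 3 mutant mice: 4 tumours, of which 2 grew in mutant 1 and 1 each in mutants 2 and 3, and 3 samples of liver tissue beside the tumours. Each tumour was matched to the tumour-free sample with the same mutant number, and the counts of the 2 tumours of mutant 1 were summed, which left 3 pairs of samples from 3 animals. Every gene in the count table was considered.

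All mice were male and of the C57BL/6 strain. The mutants carried a transgene for c-Jun~Fra2, a single-chain AP-1 dimer of c-Jun with Fra2 (the product of Fosl2), which was switched on by taking doxycycline away at weaning, at 3 weeks of age. Tumours and tumour-free tissue were both collected 9 months later, so both come from mutants and both had the transgene switched on. Neither the promoter nor the cell type of the transgene's expression is stated in the labels. The labels call the cells of both tissues mostly transformed hepatocytes, so the tumour-free tissue is not normal liver. Levels in 3 control livers of littermates, treated in the same way and collected at 9 months, are given beside the values as background only.

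AP-1 is a family of dimeric transcription factors made of Jun and Fos proteins, which bind a short palindromic DNA site and are switched on by growth factors and stress. In the liver, hepatocytes divide their metabolic work along the sinusoid: periportal cells make urea and glucose, and pericentral cells, under Wnt signals from endothelial cells of the central vein, make glutamine, bile acids and drug-metabolising enzymes. Liver sinusoids are lined by a fenestrated endothelium with its own markers, and many liver tumours are fed by vessels whose endothelium looks like that of ordinary capillaries.

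The 7 libraries held 18977477 to 22062341 counts, and the tumours, at 19498755 to 21587928, lay within the range of the tumour-free samples. Levels are in CPM, counts relative to the size of the library, after scaling by the trimmed mean of M-values (TMM). All 36 listed secreted hepatocyte proteins and all 20 listed hepatocyte transcription factors passed the filter on low counts. A gene present in 1 tissue alone can pass that filter. The summed level of the 36 secreted proteins was 172557 to 217437 CPM in the 7 libraries. Over the 14566 genes tested, the tumour-free samples resembled each other (Pearson's r of log2 levels, across genes, 0.97 to 0.985) more closely than the tumours did (0.919 to 0.934). The share of genes at least 2-fold away from the matched tumour-free sample was 10.4% in tumour 1 of mutant 1, 6.03% in tumour 2 of mutant 1, 12.4% in mutant 2 and 11% in mutant 3. Tumours were thus less alike than tumour-free samples, and tumour 2 of mutant 1 lay nearest to its tumour-free tissue. Between the 2 tumours of mutant 1, 447 genes (3.07%) were at least 2-fold apart. The animals shared little of the change from tumour-free tissue to tumour. Across the 14566 genes, Pearson's r of the log2 changes was 0.342 between mutants 1 and 2 and 0.301 between mutants 2 and 3. Between mutants 1 and 3 it was -0.0153.

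With the animal as a block, edgeR's quasi-likelihood test called 1 gene, Ces1e, at an adjusted p under 0.05 (0.00687% of the genes tested). At an unadjusted p under 0.05, 721 genes were higher (4.95%) and 808 lower (5.55%) in the tumours. Counted by animal, 61 genes were at least 2-fold higher in the tumour in all 3 mice (0.419%) and 78 at least 2-fold lower in all 3 (0.535%). With no minimum fold, 2425 genes (16.6%) were higher and 2530 (17.4%) lower in the tumour in all 3 mice. Over the 7 single libraries, all 4 tumours lay above all 3 tumour-free samples in 825 genes (5.66%) and below them in 911 (6.25%), which is the background for each gene described as not overlapping. Other analyses gave other counts: DESeq2 with the same block called 497 genes (3.55% of the 14005 it tested), and an edgeR fit over all 5 groups of the series, without the block, called 380 (2.51%). In simulated data both edgeR and DESeq2 called some genes that had not been changed, and DESeq2 called more of them. How many changed genes each tool missed is not reported here. The simulation used edgeR's estimates of spread and an assumed difference between animals, so its outcome may not carry over to the real data. Counts of the genes in a list are read below against these shares of all genes. Genes other than Ces1e are given by their values, since they did not pass the adjusted threshold.

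Ces1e, on chromosome 8, encodes a carboxylesterase of the liver and was the gene called. Its level was 7.29, 2.76 and 2.27 CPM in the tumour-free tissue of mutants 1, 2 and 3. In the tumours it was 162 and 18.1 CPM in the 2 tumours of mutant 1, 31.4 CPM in mutant 2 and 33.6 CPM in mutant 3. All 4 tumours were above all 3 tumour-free samples, and all 7 were far below the control livers, at 450 to 550 CPM. Ces1e rose by 3.64 ± 0.16 (log2, SE), or 12.5-fold (edgeR's quasi-likelihood test, adjusted p = 0.049). The call was lost when any animal or either tumour of mutant 1 was left out, with log2 changes between 2.897 and 3.965. Ces1e belongs to a cluster of closely related carboxylesterase genes, and reads shared between them could be divided among them by the counting.

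**Figure D1:**
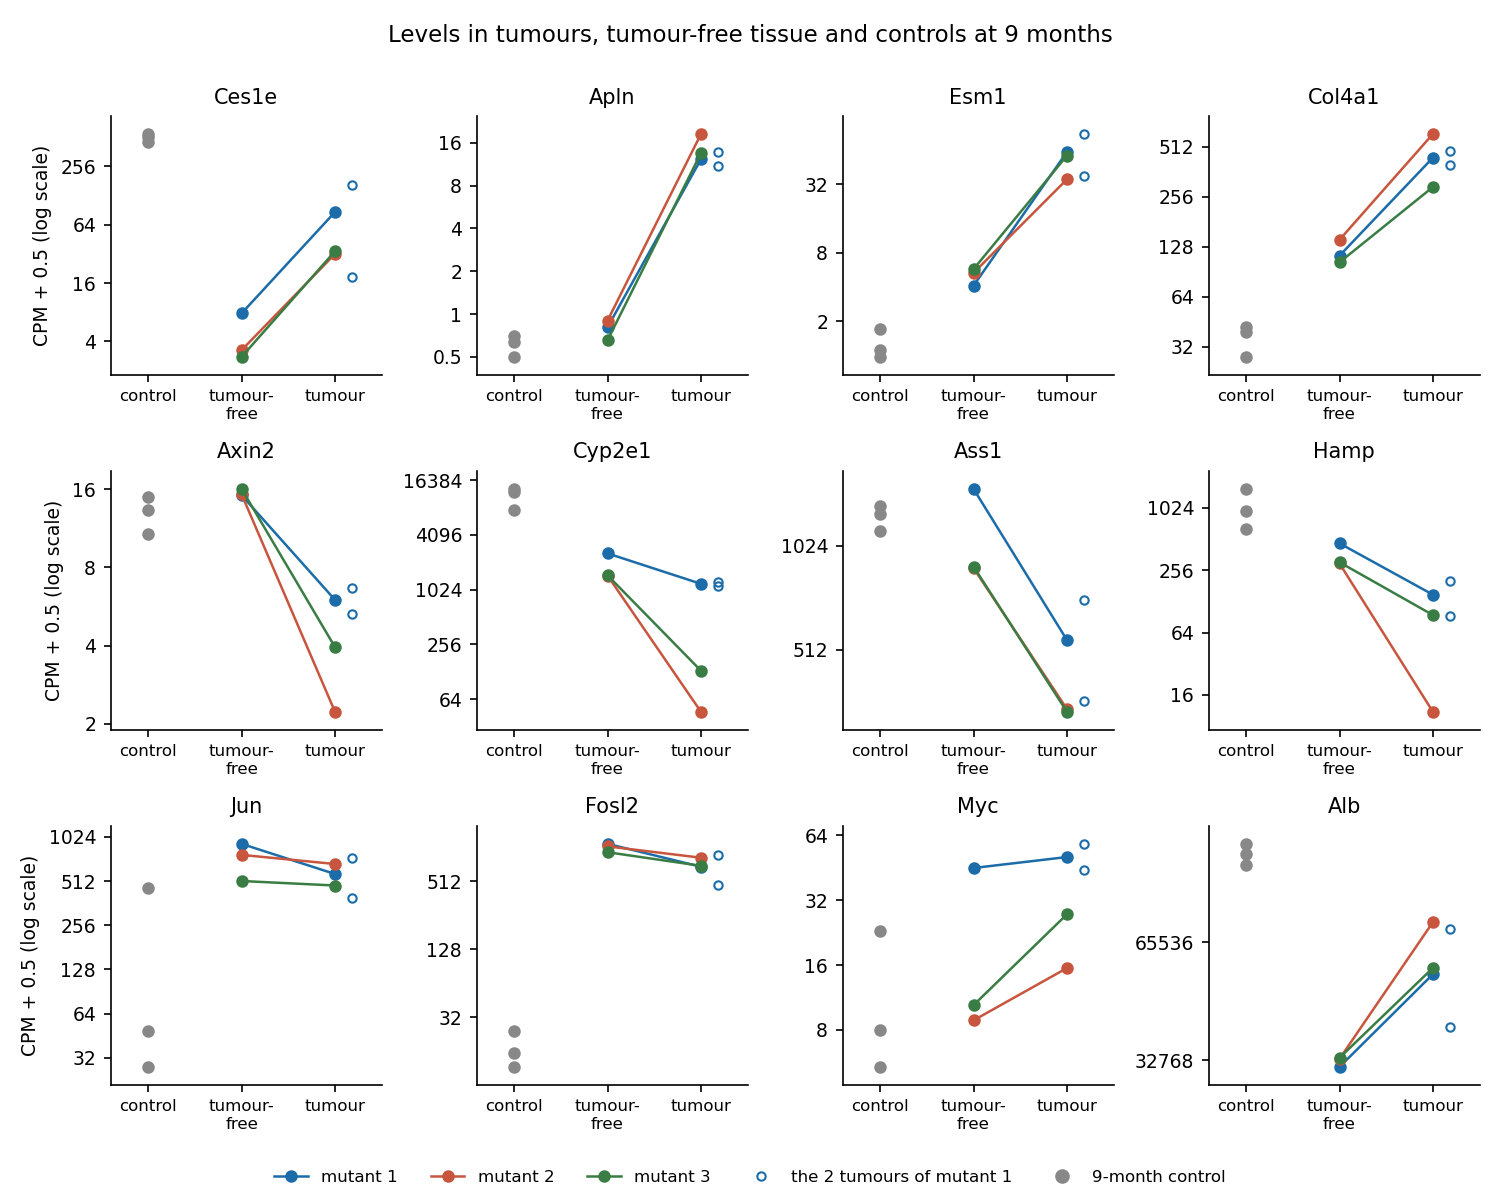
Levels of 12 genes at 9 months, in CPM plus 0.5 on a log axis of base 2 with its own range in each panel; lines join the tumour-free tissue and the tumour of 1 animal, open circles are the 2 tumours of mutant 1 and grey points the 3 controls. Ces1e, Apln, Esm1 and Col4a1 were higher in every tumour than in any tumour-free sample, and Axin2, Cyp2e1, Ass1 and Hamp were lower in every tumour than in any tumour-free sample.

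Genes of blood vessels were among those that were higher. Of 25 tested markers of capillarised and large-vessel endothelium, 13 were higher and 1 lower at an unadjusted p under 0.05, and 10 were at least 2-fold higher in all 3 animals. The median of the list was 1.64 (log2), against 0.003 over all genes tested. The list's summed level was 368 to 384 CPM in the tumour-free samples, 584 to 815 CPM in the tumours and 356 to 370 CPM in the controls. In bulk tissue, more cells of a type and more RNA per cell cannot be told apart, and the same holds for lower values.

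Apln encodes apelin, a peptide made by the tip cells of growing vessels. It was at 0.308, 0.400 and 0.155 CPM in the tumour-free samples and at 13.2 and 10.6, 18.0 and 13.1 CPM in the tumours of mutants 1, 2 and 3. It was thus barely detected outside the tumours, including the controls (0 to 0.202 CPM). Its log2 change was 5.62 ± 0.32 (adjusted p = 0.0866).

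Esm1 encodes endocan, another tip cell product. It was at 3.59, 4.80 and 5.22 CPM in the tumour-free samples and at 87.8 and 37.0, 34.7 and 56.4 CPM in the tumours, a log2 difference of 3.45 ± 0.28 (adjusted p = 0.255). Controls were lower than either tissue, at 0.469 to 1.21 CPM. Kcne3, a potassium channel subunit, was at 2.67, 1.29 and 2.43 CPM against 21.3 and 12.5, 5.40 and 11.8 CPM. These values did not overlap either. Angpt2, a ligand that loosens vessel walls, was at 1.33 to 1.71 CPM against 6.24 to 12.5 CPM. The surface proteins Pecam1 and Emcn were at 20.3 to 22.9 against 41.0 to 70.4 CPM and at 2.22 to 3.57 against 12.8 to 43.2 CPM. Ly6c1, at 0.310 to 0.821 CPM against 3.55 to 10.8 CPM, had the second largest fitted change of the list among its members with an unadjusted p under 0.05, 3.66 ± 0.54.

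Notch signalling in vessels runs from the ligand Dll4 on tip cells to Notch receptors on the neighbouring cells, with Nrarp as a feedback target and Efnb2 as an arterial target. Nrarp was at 3.34, 2.45 and 3.15 CPM in the tumour-free samples and at 13.9 and 15.4, 9.69 and 14.5 CPM in the tumours (log2 difference 2.10 ± 0.20, adjusted p = 0.255). Efnb2 was at 4.14 to 5.32 CPM against 15.3 to 32.4 CPM. Dll4 and Notch4, which were chosen after their values were seen, were at 5.54 to 7.49 against 20.02 to 25.8 CPM and at 4.80 to 7.08 against 15.4 to 30.0 CPM. For all 4 genes the tumours lay above the tumour-free samples without overlap.

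Vascular basement membrane is built from collagen IV, laminins and nidogens. Col4a1 and Col4a2, chosen after their values were seen, are neighbours on chromosome 8 transcribed in opposite directions. Col4a1 was at 113, 141 and 103 CPM in the tumour-free samples and at 397 and 484, 614 and 294 CPM in the tumours, and Col4a2 at 60.9 to 85.8 CPM against 178 to 418 CPM, so that neither overlapped. Both were lower in the controls (Col4a1 27.3 to 41.8 CPM) than in either mutant tissue. Lama4, a laminin chain of endothelial basement membrane, was at 3.96 to 4.65 against 10.2 to 20.3 CPM. Further endothelial genes among the 10 with the smallest p in the higher direction were Gpihbp1, which anchors lipoprotein lipase to capillaries (14.2 to 18.8 against 48.3 to 52.5 CPM), Mmrn2 (9.16 to 10.3 against 24.9 to 40.8 CPM), Btnl9 (4.80 to 7.24 against 13.6 to 26.9 CPM) and the endothelin receptor Ednrb (10.9 to 22.3 against 32.8 to 63.8 CPM). Klhl13, an adaptor of a ubiquitin ligase and not an endothelial marker, was at 6.88, 6.40 and 5.01 CPM against 63.5 and 30.1, 35.3 and 22.1 CPM (log2 difference 2.45 ± 0.18, adjusted p = 0.189).

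Sinusoidal endothelial markers gave other values. Of 19 tested, 2 were higher and 4 lower at an unadjusted p under 0.05, and none was 2-fold one way in all 3 animals; the median was -0.82. Dnase1l3, a secreted nuclease, was at 56.0, 47.0 and 58.2 CPM against 29.6 and 35.1, 23.5 and 34.4 CPM, and Fcgr2b, a scavenging Fc receptor, at 38.4 to 46.2 against 27.2 to 32.2 CPM. For both, all tumours were below all tumour-free samples. Kdr, the main receptor for vascular endothelial growth factor, was at 26.3 to 32.1 against 36.0 to 64.1 CPM. The lectin Clec4g and the scavenger receptor Stab2 differed by animal: in mutant 2, Clec4g was at 37.8 CPM beside the tumour and 1.81 CPM in it, whereas in mutant 3 it was at 50.03 and 39.2 CPM. The list's summed level was 834 to 895 CPM in the tumour-free samples and 495 to 1063 CPM in the tumours.

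**Figure D2:**
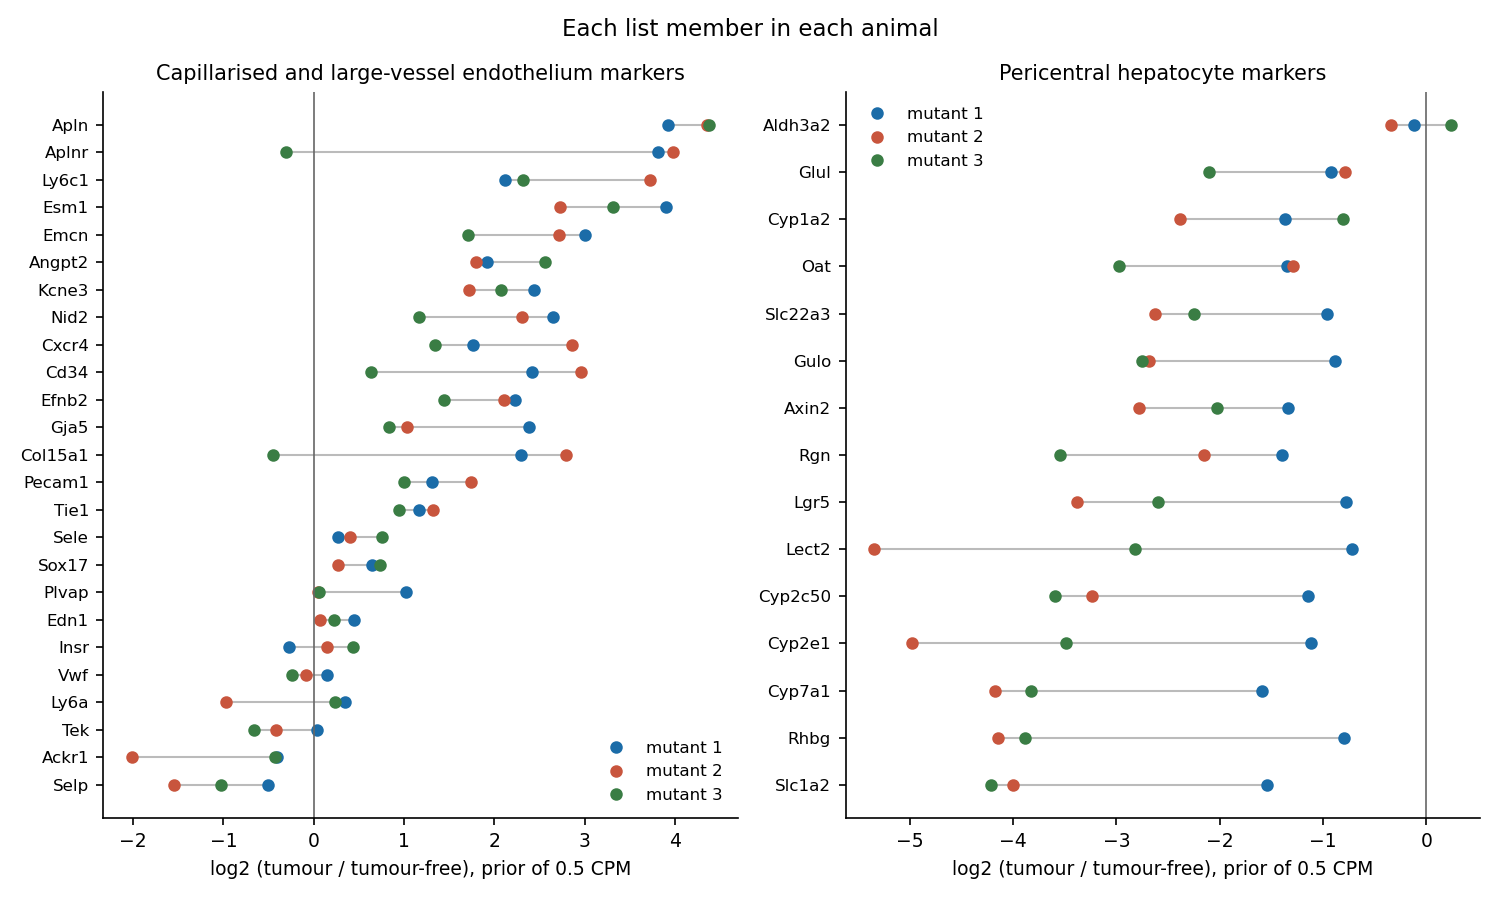
The log2 ratio of tumour to tumour-free tissue in each animal, with a prior of 0.5 CPM, for each tested member of 2 marker lists; points are animals and grey lines their range. In the left panel 10 of 25 members lie beyond 1 in all 3 animals, and in the right panel 14 of 15 lie below 0 in all 3.

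Pericentral hepatocyte genes were lower in the tumours. Of 15 tested markers, 13 were lower at an unadjusted p under 0.05 and none higher, 14 were lower in all 3 animals (17.4% of all genes), and 7 were at least 2-fold lower in all 3. The median was -2.37, with animal medians of -1.11, -2.78 and -2.82 in mutants 1, 2 and 3. Without mutant 3, 5 of the 15 had an unadjusted p under 0.05, and without the replicate block 5 did.

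Cyp2e1, an ethanol- and drug-oxidising P450, was at 2556, 1457 and 1468 CPM in the tumour-free samples. In the tumours it was at 1129 and 1236 CPM in mutant 1, 45.7 CPM in mutant 2 and 130 CPM in mutant 3. Every tumour was below every tumour-free sample, and all were below the controls (7694 to 13100 CPM). Its log2 difference was -3.24 ± 0.93 (adjusted p = 0.4), with the 3 animals far apart. Cyp7a1, the rate-limiting enzyme of bile acid synthesis, was at 436, 112 and 194 CPM against 131 and 157, 5.71 and 13.2 CPM, and the tumours of mutant 1 overlapped the tumour-free range. Glul, glutamine synthetase, was at 410, 166 and 217 CPM against 187 and 244, 96.1 and 50.1 CPM. Rgn was at 284, 139 and 187 CPM against 99.5 and 115, 30.9 and 15.6 CPM, and Slc22a3, a cation transporter, at 15.1 to 28.2 against 2.03 to 14.6 CPM; neither overlapped. Glul was chosen after its values were seen.

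Most targets of Wnt and beta-catenin were lower as well. Of 13 tested, 9 were lower and 1 higher at an unadjusted p under 0.05, with a median of -1.32. Without mutant 3, 5 were lower at that p. The animal medians were -0.64, -1.40 and -1.28 in mutants 1, 2 and 3. The list's summed level was 402, 340 and 443 CPM in the tumour-free samples and 493, 157 and 283 CPM in the tumours. By that sum the list was higher in the tumours of mutant 1. Axin2, the general feedback inhibitor of the pathway, was at 14.7, 14.8 and 15.6 CPM in the tumour-free samples and at 4.81 and 6.15, 1.73 and 3.45 CPM in the tumours. Its tumour-free values lay within 1 CPM of each other and close to the controls (10.2 to 14.4 CPM), and its log2 difference was -2.20 ± 0.37 (adjusted p = 0.318). The inhibitors Rnf43, a ligase that removes Wnt receptors, and Nkd1 were at 38.8 to 49.9 against 20.2 to 29.1 CPM and at 5.44 to 6.92 against 1.93 to 3.28 CPM, again without overlap. Notum, an enzyme that inactivates Wnt ligands, overlapped: 32.6, 34.9 and 59.7 CPM against 18.3 and 22.9, 12.96 and 39.3 CPM. Nkd2, chosen after its values were seen, was the member that was higher, at 0.411 to 0.578 against 0.709 to 4.55 CPM. Lgr5, the R-spondin receptor of pericentral cells, also chosen so, was at 7.24, 5.65 and 6.82 CPM against 4.51 and 3.58, 0.0885 and 0.709 CPM.

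The Wnt ligand and enhancer made by central vein and sinusoidal endothelium gave similar values. Rspo3, which strengthens Wnt signals, was at 6.93, 7.03 and 8.58 CPM in the tumour-free samples and at 5.12 and 6.06, 1.37 and 2.89 CPM in the tumours. Wnt2, chosen after its values were seen, was at 1.91 to 2.16 CPM against 0.0442 to 1.24 CPM. In both genes the tumours of mutant 1 were nearest to the tumour-free tissue, as in the pericentral genes, and the part of these genes in the pericentral values was not tested.

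Periportal markers were mixed. Of 15 tested, 2 were higher and 4 lower at an unadjusted p under 0.05, with a median of 0.08. Ass1, which joins citrulline and aspartate in the urea cycle, was at 1496, 882 and 891 CPM in the tumour-free samples and at 363 and 711, 344 and 338 CPM in the tumours. Its log2 difference was -1.41 ± 0.22 (adjusted p = 0.306), and the ratios of the 3 animals were -1.46, -1.36 and -1.40. Cps1, the entry enzyme of the cycle, was at 4307, 2676 and 2176 CPM against 1452 and 2375, 289 and 1027 CPM. Hsd17b13, a lipid droplet enzyme in the same list, was at 113 to 182 against 193 to 415 CPM. Gls2, liver glutaminase, was at 402, 261 and 245 CPM against 269 and 300, 152 and 102 CPM and overlapped.

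Enzymes of the urea cycle and of amino acid breakdown, as a longer list, were lower: 22 of 42 tested had an unadjusted p under 0.05 in that direction and none in the other, 28 were lower in all 3 animals (17.4% of all genes), and 9 were at least 2-fold lower in all 3. The median was -0.70. Without the replicate block, 14 had an unadjusted p under 0.05. Afmid, which breaks down tryptophan products, was at 32.8, 22.3 and 19.8 CPM against 8.76 and 17.4, 8.40 and 4.76 CPM, without overlap (log2 difference -1.58 ± 0.21, adjusted p = 0.294). Tat, tyrosine aminotransferase, was at 2736, 763 and 1549 CPM against 902 and 1496, 231 and 332 CPM, and Got1, aspartate aminotransferase, at 632, 276 and 308 CPM against 268 and 329, 104 and 153 CPM. Both overlapped between the tissues, with mutant 1 the highest animal in each. Oat, which turns ornithine into a precursor of glutamate, was at 211, 50.6 and 115 CPM against 69.4 and 95.4, 20.5 and 14.2 CPM. Against these enzymes, Aldh18a1, which makes proline from glutamate, was at 5.39, 4.36 and 4.44 CPM in the tumour-free samples and at 16.6 and 10.3, 13.6 and 13.3 CPM in the tumours, and Mthfd2, a mitochondrial folate enzyme, at 6.93 to 8.98 against 10.1 to 19.7 CPM. These 2 genes, listed as targets of the stress factor ATF4, did not overlap between the tissues. The ATF4 list as a whole was mixed: of 22 tested, 5 were higher and 4 (Ddit4, Asns, Cebpb and Vldlr) lower at an unadjusted p under 0.05, with animal medians of -0.23, 0.26 and 0.48. Asns, asparagine synthetase, had a log2 difference of -1.18 ± 0.40, and the 4 lower genes were named after their values were seen.

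Cytochrome P450 genes lay on both sides. Of 44 tested, 6 were higher and 14 lower at an unadjusted p under 0.05, and 2 were at least 2-fold higher and 8 at least 2-fold lower in all 3 animals. The median was -0.80; without the replicate block 7 were lower at that p. Cyp27a1, of bile acid synthesis, was at 386, 284 and 296 CPM against 180 and 192, 111 and 129 CPM (log2 difference -1.20 ± 0.18, adjusted p = 0.302). Cyp2c70 was at 125 to 132 against 28.2 to 60.6 CPM. Cyp4a10, a fatty acid hydroxylase, was at 4.03 to 10.1 against 0.608 to 3.17 CPM, both far from the controls at 380 to 715 CPM. The 2 that were at least 2-fold higher in all 3 animals, Cyp2a4 and Cyp2b9, are P450s of the female-biased list: Cyp2a4 was at 719, 101 and 89.3 CPM against 5351 and 405, 1523 and 3895 CPM, and Cyp2b9 at 5.34 to 16.1 against 12.2 to 63.0 CPM. For both genes tumour 2 of mutant 1 was below the tumour-free tissue of its animal, at 405 against 719 CPM and at 12.2 against 16.1 CPM. Controls were at 18.0 to 113 CPM for Cyp2a4 and, above every tumour, at 85.1 to 266 CPM for Cyp2b9. The female-biased list as a whole was mixed. Of 13 tested, 4 were higher and 4 lower in all 3 animals (16.6% and 17.4% of all genes), with a median of -0.03. Cyp2a4 and Cyp2a5 are near-identical, so that their counts are uncertain.

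The lower direction also held genes outside these pathways. Papss2, which makes the sulfate donor, was at 267, 161 and 152 CPM against 82.6 and 158, 43.1 and 32.6 CPM. Atoh8, a transcription factor, was at 14.3 to 22.2 against 3.23 to 11.7 CPM, and B4galnt3, a glycosyltransferase, at 9.46 to 17.5 against 2.97 to 7.70 CPM. Slc16a14 was at 3.72 to 7.08 against 0.405 to 2.89 CPM and at 0 to 0.0686 CPM in the controls. Srgap3 was at 2.33 to 10.4 against 0.557 to 4.22 CPM and overlapped. Hamp, which encodes the iron hormone hepcidin, was at 466, 298 and 306 CPM against 92.5 and 199, 10.5 and 94.1 CPM, without overlap (log2 difference -2.62 ± 0.82).

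Albumin, the most abundant plasma protein, had higher levels in the tumours. It took 2.97%, 3.37% and 3.39% of all counts in the tumour-free tissue of mutants 1, 2 and 3 and 5.57%, 7.72% and 5.31% in their tumours. The share was higher in the tumour in 3 of 3 animals, and in the controls it was 7.70% to 8.12%. The exact paired permutation test, two-sided, gave p = 0.25, the smallest that 3 pairs allow. Of the 36 secreted proteins tested, 1, albumin, was higher and 4 were lower at an unadjusted p under 0.05, 3 were higher and 15 lower in all 3 animals, and the median was -0.29. Of 20 hepatocyte transcription factors, none was higher and 4 were lower at that p, with a median of -0.28. The nuclear receptor Nr1i3 had the smallest p of these, at 75.5, 55.9 and 86.6 CPM against 31.8 and 41.9, 24.9 and 47.7 CPM, and at 621 to 1107 CPM in the controls.

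The genes of the transgene's partners and of Myc, which the study's title names, did not pass the adjusted threshold. Fosl2 was at 1095, 1040 and 923 CPM in the tumour-free samples and at 476 and 878, 825 and 699 CPM in the tumours. All tumours were below all tumour-free samples, and all 7 were far above the controls (11.1 to 23.5 CPM). Its log2 difference was -0.47 ± 0.23 (adjusted p = 0.556). Jun was at 918, 772 and 512 CPM against 393 and 735, 669 and 477 CPM and overlapped (log2 difference -0.33 ± 0.24, adjusted p = 0.698). The counts of both may include reads of the transgene. Of the 12 AP-1 family genes tested, none had an unadjusted p under 0.05. Fosl1, at 0.103 to 0.462 against 0.461 to 0.872 CPM, was near the level of a few counts.

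Myc was at 44.6, 8.36 and 9.92 CPM in the tumour-free samples and at 57.8 and 43.6, 14.99 and 27.0 CPM in the tumours. It was higher in the tumour in 3 of 3 animals, by log2 ratios of 0.17, 0.81 and 1.40, but the tumour-free tissue of mutant 1 was as high as tumours. The fitted log2 difference was 0.81 ± 0.27 (adjusted p = 0.445). The immediate early list, which holds Myc, was also high in both tissues of mutant 1: its summed level was 2493 CPM in the tumour-free tissue and 2756 CPM in the tumours of mutant 1, against 967 and 1111 CPM in the tumour-free tissue and 871 and 1063 CPM in the tumours of the other animals. The list also differed between controls, at 5632 CPM in control 1 against 486 and 315 CPM in the other controls, and Jun was at 459 CPM in control 1 against 48.1 and 27.2 CPM. The part of these differences between animals in the values of Myc and Jun was not tested. Mycl, a Myc relative, was at 0.489 to 1.08 against 1.95 to 6.37 CPM without overlap, below the controls (9.09 to 17.8 CPM). Of 30 genes of ribosome biogenesis, 14 were higher in all 3 animals (16.6% of all genes) and none lower, and the median was 0.22. Only 1 of the 30 had an unadjusted p under 0.05 (Npm1, 30.5 to 40.2 against 47.3 to 56.2 CPM), a share no higher than the 4.95% of all genes.

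Mitotic genes were slightly higher. Of 30 tested, 20 were higher in all 3 animals (16.6% of all genes) and none lower in all 3, 5 were higher at an unadjusted p under 0.05, and none was 2-fold higher in all 3 animals; the median was 0.61. Between 1 and 2 of the 30 had an unadjusted p under 0.05 when an animal was left out, and 3 did in DESeq2. Mki67, a marker of cycling cells, was at 6.98, 7.43 and 5.32 CPM against 14.2 and 13.03, 10.8 and 9.48 CPM. Top2a, which untangles DNA, was at 6.10 to 7.83 against 8.36 to 12.8 CPM, and Prc1, of the mitotic spindle, at 2.53 to 4.11 against 4.51 to 7.43 CPM. None of these overlapped, and the controls were lower (Mki67 1.00 to 4.51 CPM). Of 29 tested genes of DNA replication, 14 were higher and 2 lower in all 3 animals (16.6% and 17.4% of all genes). At an unadjusted p under 0.05, 4 were higher and 2 lower, and the median was 0.35. Uhrf1 was at 1.91 to 3.34 against 3.35 to 8.58 CPM. Mcm10, at 28.2 to 36.4 against 6.37 to 21.2 CPM, and Tk1, at 8.58 to 12.8 against 5.02 to 7.07 CPM, were lower in every tumour. Both were higher in the controls (Mcm10 135 to 156 CPM, Tk1 21.6 to 26.5 CPM) than in either mutant tissue.

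Among secreted factors and proteases, Plau, the urokinase activator, was at 2.85 to 3.36 against 5.53 to 15.04 CPM, and Inhbb, which encodes an activin subunit, at 3.46 to 6.57 against 13.8 to 25.1 CPM. Of 21 matrix protease genes tested, 6 were higher and 2 lower at an unadjusted p under 0.05.

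Genes of antigen presentation split by class. Of 22 tested, 6 were higher and 6 lower at an unadjusted p under 0.05. The 6 that were higher belong to the class II pathway, used by antigen-presenting cells. They include H2-Ab1, at 110, 85.2 and 122 CPM against 177 and 237, 232 and 151 CPM, H2-DMb1, at 7.34 to 9.61 against 11.4 to 13.5 CPM, and Cd74, at 274 to 368 against 444 to 697 CPM. The 6 that were lower belong to the class I pathway, used by most cells. They include Tap1, a peptide transporter, at 75.1 to 92.9 against 47.1 to 60.2 CPM, H2-Q7, at 88.6 to 125 against 27.5 to 68.1 CPM, and H2-Q10, a secreted class I protein of hepatocytes, at 1935 to 2778 against 885 to 1390 CPM. None of these genes overlapped between the tissues. Controls were below the tumour-free samples for Tap1 (36.2 to 57.0 CPM) and H2-Q7 (28.2 to 38.9 CPM), and above both tissues for H2-Q10 (3134 to 4166 CPM). The H2-Q genes are close copies, so that their counts are uncertain, and H2-Ab1 and Cd74 were chosen after their values were seen.

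Kupffer cells, the resident macrophages, showed different values in each animal. Of 17 tested markers, 1, the scavenger receptor Marco, had an unadjusted p under 0.05 (11.7 to 12.1 CPM in mutants 1 and 2 and 1.65 CPM in mutant 3, against 3.38 and 6.75, 0.177 and 0.203 CPM). The median log2 ratio was -0.97 in mutant 1, -3.19 in mutant 2 and -0.00046 in mutant 3. Clec4f, a lectin that marks these cells, was at 144, 146 and 154 CPM in the tumour-free samples and at 64.1 and 74.1, 2.56 and 111 CPM in the tumours. Csf1r and C1qa, 2 general macrophage genes of the same list chosen after their values were seen, did not share the low values of mutant 2. There Csf1r was at 123 CPM beside the tumour and 97.1 CPM in it, and C1qa at 87.1 and 94.5 CPM. The list's summed level was 1115, 1165 and 1076 CPM in the tumour-free samples of mutants 1, 2 and 3. In their tumours it was 729, 874 and 1454 CPM. In the tumour of mutant 2 the sinusoidal markers Clec4g and Stab2 (37.5 CPM beside it and 5.57 CPM in it) were low together with Clec4f.

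**Figure D3:**
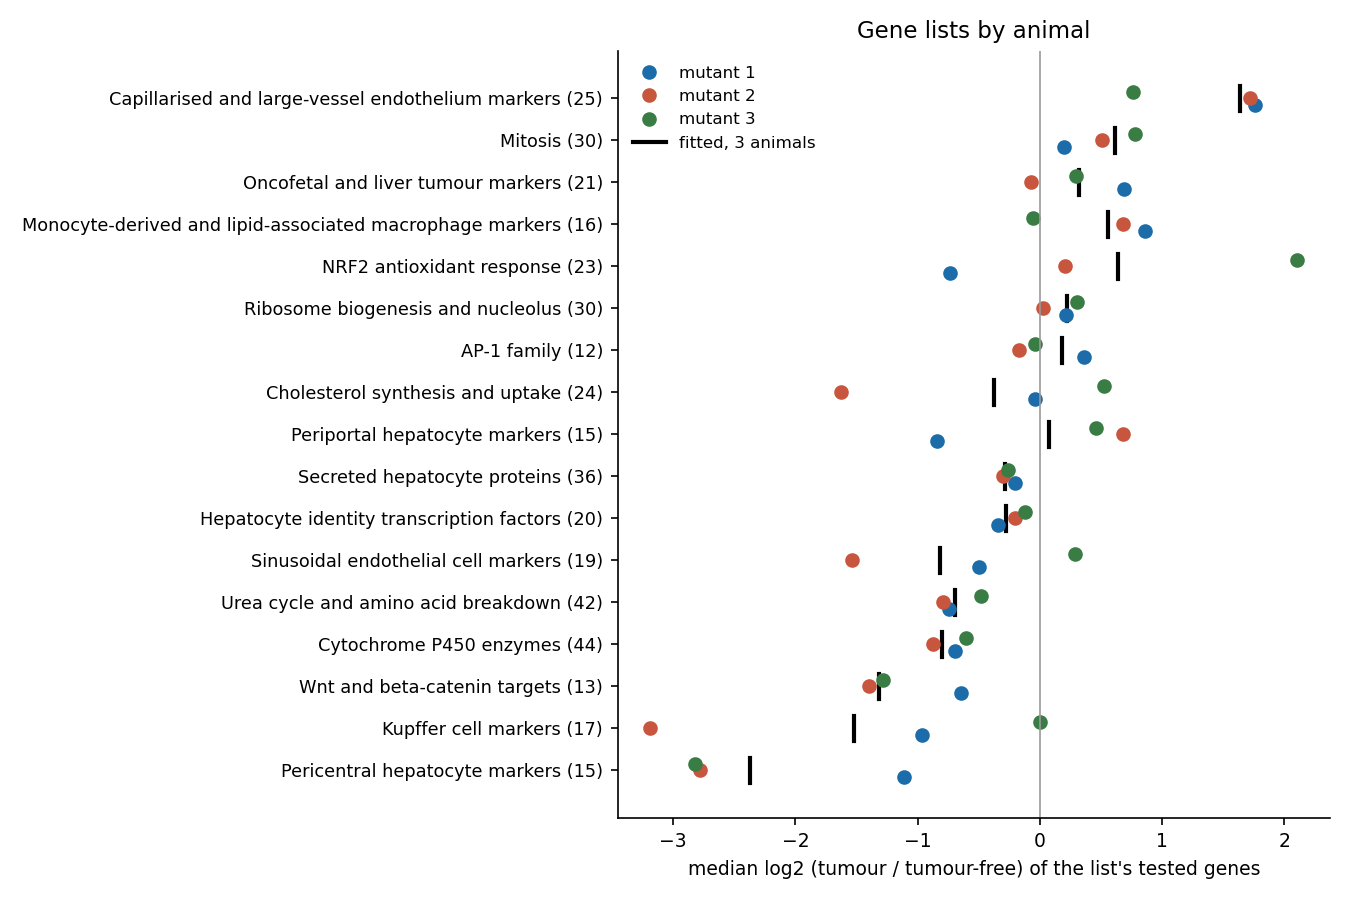
The median log2 ratio of tumour to tumour-free tissue over the tested genes of 17 lists (number of genes in brackets), for each animal as a point and for the fit over 3 animals as a bar. Points for the capillarised endothelium, mitosis and ribosome biogenesis lists lie above 0 in all 3 animals. Those of the pericentral, Wnt, P450, urea cycle and amino acid, secreted protein, hepatocyte factor and Kupffer lists lie below 0 in all 3. For the Kupffer list mutant 3 is at -0.00046. Points of the other lists lie on both sides, and those of the NRF2 list run from -0.74 to 2.11.

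Other programmes were high in the tumours of 1 animal. The NRF2 antioxidant list had median log2 ratios of -0.74, 0.21 and 2.11 in mutants 1, 2 and 3. Nqo1, a quinone reductase, was at 140, 31.5 and 31.6 CPM in the tumour-free samples and at 18.9 and 23.8, 63.4 and 381 CPM in the tumours. Gclc, which starts glutathione synthesis, was at 782, 442 and 298 CPM against 418 and 485, 419 and 2623 CPM. The direction in mutant 1 was thus the opposite of that in mutant 3. Me1, malic enzyme, was the list member with the smallest p and was higher in every tumour, at 24.6 to 34.4 against 52.4 to 187 CPM. Every tumour was below the controls in Me1 (379 to 486 CPM).

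Some genes of the bile duct and progenitor list were high in the tumours of mutant 1. The list as a whole was mixed: of 19 tested, 1 was higher and 2 lower at an unadjusted p under 0.05. In all 3 animals 4 were higher and 4 lower, and the median log2 ratio in mutant 1 was 0.79. Of the genes below, Spp1 is also in the list of monocyte-derived and lipid-associated macrophage markers. Cd24a was at 1.80 CPM in the tumour-free tissue and at 254 and 124 CPM in the 2 tumours, and at 1.72 to 6.59 CPM in the tumours of the other animals. Spp1, osteopontin, was at 55.0 CPM beside the tumours of mutant 1 and at 2768 and 3469 CPM in them, against 418 and 57.7 CPM in the other tumours. Dlk1, a fetal liver gene, was at 28.9 and 41.6 CPM in the tumours of mutant 1 and at 0 and 0.152 CPM in the others. Mup3, a major urinary protein of adult males, was also high there, at 92.8 CPM in the tumour-free tissue and at 2017 and 422 CPM in the tumours of mutant 1, against 4.60 and 22.7 CPM in the other tumours and 5770 to 7066 CPM in the controls. Its list of major urinary proteins and male-biased genes was not high in mutant 1: the median log2 ratio of its 15 tested genes was -0.49 there, and the summed level was 4537 CPM in the tumour-free tissue and 4069 CPM in the tumours. Car3, a carbonic anhydrase of liver, muscle and fat, was at 167 CPM beside the tumours of mutant 1 and at 4228 and 1700 CPM in them, against 107 and 172 CPM in the other tumours. The controls were above every tumour, at 7705 to 8396 CPM. Afp, the fetal serum protein, was at 23.3, 6.63 and 5.89 CPM in the tumour-free samples and at 3.74 and 5.42, 3.01 and 65.4 CPM in the tumours, so it was higher in mutant 3 and lower in mutants 1 and 2. Cholesterol synthesis genes were low in the tumour of mutant 2 (median log2 ratio -1.63), with Sqle, squalene epoxidase, at 197 CPM beside that tumour and 94.0 CPM in it. These genes other than Me1 were chosen after their values were seen, and with 1 pair of samples per animal a difference between animals has no test.

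**Figure D4:**
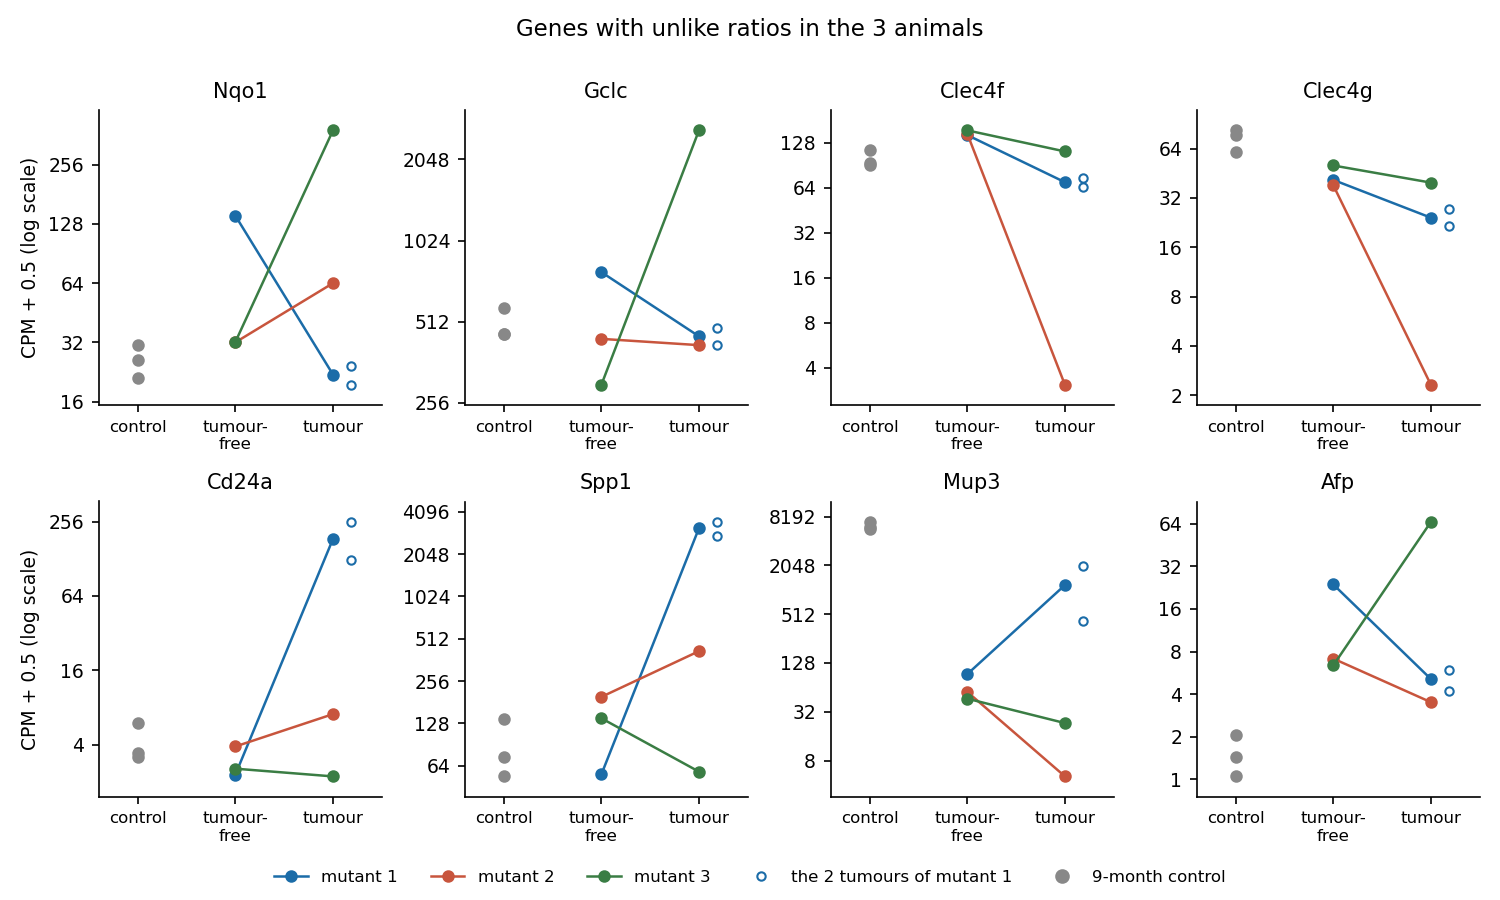
Levels of 8 genes at 9 months, in CPM plus 0.5 on a log axis of base 2 with its own range in each panel, drawn as in the plot of 12 gene levels. Nqo1 and Gclc were high in the tumour of mutant 3, Clec4f and Clec4g low in the tumour of mutant 2, and Cd24a, Spp1 and Mup3 high in the tumours of mutant 1.

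Of the oncofetal and tumour marker list, 3 of 21 tested genes were higher at an unadjusted p under 0.05 and none lower. Golm1, a Golgi protein released by liver tumours, was at 13.8, 20.6 and 15.8 CPM against 22.7 and 27.5, 129 and 36.4 CPM. Cdkn2b, an inhibitor of the cell cycle, was at 1.54 to 1.96 against 3.63 to 8.46 CPM; neither gene overlapped. Sox4 was at 5.24, 8.94 and 8.01 CPM against 24.8 and 20.7, 42.3 and 8.01 CPM, the same level on both sides in mutant 3.

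Because the transgene encodes an AP-1 dimer, the promoters of the genes that were at least 2-fold apart in all 3 animals were searched for the AP-1 site TGANTCA, which reads the same on both strands, in windows of 250 bases before to 50 bases after RefSeq transcription starts (GRCm38.p6). Of 53 such promoters of 44 genes among the 61 higher genes, 9 (17%) held the site, as did 6 of 58 promoters (10.3%) of 53 genes among the 78 lower ones. The share was 5.65% over 13996 promoters of genes tested and 7.81% over all 32851 promoters in the table. A match is a description of the letters only. The E-box CACGTG, which Myc can bind, was in 5.66% and 6.9% of the higher and lower genes' promoters, against 9.57% of those of genes tested. The only other motif searched was the TCF/LEF core CTTTGAT, a site of Wnt signalling. It was in 0 of the 53 promoters of higher genes and in 3 of the 58 (5.17%) of lower genes, against 2.59% of those of genes tested. Promoters of 2 genes that were higher and 2 that were lower are shown with the AP-1 site in capitals, to give the context of the site in both directions.

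Kcne3, higher in tumours, chr7:100176420-100176719, plus strand (another start of this gene has no site): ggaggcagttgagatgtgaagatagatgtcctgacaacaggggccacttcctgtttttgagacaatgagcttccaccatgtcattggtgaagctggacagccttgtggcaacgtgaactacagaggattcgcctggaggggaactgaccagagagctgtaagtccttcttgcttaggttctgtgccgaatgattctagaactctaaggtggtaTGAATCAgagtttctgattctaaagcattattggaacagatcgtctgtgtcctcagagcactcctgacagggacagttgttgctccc
Notch4, higher in tumours, chr17:34564045-34564344, plus strand: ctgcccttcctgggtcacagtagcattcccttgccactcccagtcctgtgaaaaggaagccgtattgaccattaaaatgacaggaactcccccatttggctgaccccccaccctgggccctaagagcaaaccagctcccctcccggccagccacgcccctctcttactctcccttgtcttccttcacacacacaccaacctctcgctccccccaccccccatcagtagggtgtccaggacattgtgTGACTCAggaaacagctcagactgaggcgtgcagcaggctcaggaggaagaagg
Hamp, lower in tumours, chr7:30943980-30944279, minus strand: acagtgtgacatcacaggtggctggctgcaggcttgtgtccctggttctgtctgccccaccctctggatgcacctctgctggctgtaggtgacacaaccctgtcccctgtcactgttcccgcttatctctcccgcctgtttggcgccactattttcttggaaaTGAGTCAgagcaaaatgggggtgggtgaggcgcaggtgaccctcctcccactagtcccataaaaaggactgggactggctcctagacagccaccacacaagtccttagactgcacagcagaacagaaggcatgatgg
Cyp2c70, lower in tumours, chr19:40187237-40187536, minus strand: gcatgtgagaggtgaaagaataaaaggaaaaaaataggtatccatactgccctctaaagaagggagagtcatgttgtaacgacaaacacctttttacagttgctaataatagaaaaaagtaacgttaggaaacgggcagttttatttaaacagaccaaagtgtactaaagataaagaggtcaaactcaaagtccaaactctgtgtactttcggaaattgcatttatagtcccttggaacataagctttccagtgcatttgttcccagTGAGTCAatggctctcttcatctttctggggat

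The site of Kcne3 begins 37 bases before the start, that of Notch4 4 bases and that of Hamp 87 bases before it, and that of Cyp2c70 lies behind the start. In the tumours Kcne3 and Notch4 were 5.04-fold and 3.83-fold higher, and Hamp and Cyp2c70 6.17-fold and 2.84-fold lower, by the fitted values of edgeR.

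In GRCm38 (GENCODE M21, matched by gene ID for 101 of the 102 genes named), Ces1e lies at chr8:93201218-93229619, Apln at chrX:48025146-48034853, Axin2 at chr11:108920349-108950783 and Cyp2e1 at chr7:140763739-140774987.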

How the data were processed

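Libraries were polyA-selected and stranded, and those of 9 months shared 1 sequencing run per the series design. The authors deposited raw counts per gene for the 19 libraries, whole numbers that were not normalized. The submitters' processing notes name STAR 2.6.1a, RSEM, bedtools 2.27.1, DESeq2 1.22.2 and GRCm38, without the role of each. Totals in the 7 libraries compared were 18977477 to 22062341 counts.

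The 2 tumours of mutant 1 were summed. Genes were filtered with filterByExpr and scaled by TMM, and tumours were tested against tumour-free tissue with edgeR 4.0.16 (robust quasi-likelihood test, R 4.3.3), with the animal as a block and Benjamini-Hochberg adjustment over 14566 genes, threshold 0.05. The pairing comes from the mutant numbers in the titles, which name the animals. Deviations from the group means correlated by 0.154, 0.293 and 0.00449 across genes within mutants 1, 2 and 3. Between different animals they correlated by -0.222 to 0.0849, a range that holds the value of mutant 3. Ratios per animal used CPM with a prior of 0.5. Alternatives were DESeq2 1.42.0, limma 3.58.1 (voom), other scalings, filters and sets of samples. Fits were tested on simulated data.

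Named genes are Jun, Fosl2 and Myc; up to 15 protein coding genes per direction past the threshold with a mean of at least 5 CPM in the higher group and 1 direction in all 3 animals; where fewer than 10 passed, genes up to 10 with the smallest p among those at least 2-fold one way in all 3 animals, named as not past the threshold; and up to 4 members per list with the smallest p (up to 12 in lists of at most 12 tested). The comparison, its gene lists and this rule were chosen with earlier results of these data known, and other named genes were chosen after their values were seen. Some named genes were left out and are not reported here. Promoter sequences are from RefSeq (GRCm38.p6).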

Additional observations from a re-analysis of the deposited data

Results flagged for a closer look

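Summed list levels and shares of counts, 64 quantities in all, were screened for 1 tumour library far from the other 3. In 5 of them the gap to the nearest library, divided by the whole range, exceeded Dixon's 95% critical value. Chance gives such a flag in about 1 of 20 groups, and 2 of the 4 libraries come from 1 animal. The tumour of mutant 3 was far above the others in the NRF2 antioxidant list, with a summed level of 27100 CPM against 4960 to 7730 CPM, and in the glutathione and sulfate conjugation list, at 21100 CPM against 5250 to 7370 CPM. The tumour of mutant 2 was below the others in the fatty acid oxidation and ketogenesis list, at 5770 CPM against 6820 to 7010 CPM. Tumour 2 of mutant 1 was above the others in mesothelial markers, at 50.3 CPM against 2.57 to 9.99 CPM, and in the share of counts from globin genes, at 0.0324% against 0.0174% to 0.0192%.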

How the results depend on the processing

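The count of called genes differed between analyses, which also differ in the genes tested. Against 1 called gene (1 higher, 0 lower), there were 497 (208 higher, 289 lower) with DESeq2, 380 (231 higher, 149 lower) in 1 edgeR fit over all 5 groups, 42 (35 higher, 7 lower) with no expression filter, 2 (2 higher) with no replicate block, and 0 with limma voom (1635 at an unadjusted p under 0.05) and with edgeR at a minimum of 1.5-fold (606). Leaving out an animal or a tumour of mutant 1 gave 0 to 0 called genes in edgeR, and 0 to 0 higher, with 839 to 1724 at an unadjusted p under 0.05. At an unadjusted p under 0.05, no replicate block gave 5 pericentral, 14 urea cycle and amino acid and 7 P450 genes lower, and 9 mitotic genes higher. For mitotic genes DESeq2 gave 3 and the fit over 5 groups 1. Leaving out an animal or a tumour of mutant 1 gave 5 to 14 pericentral, 5 to 8 Wnt target, 16 to 24 urea cycle and amino acid and 11 to 14 P450 genes lower, and 11 to 15 capillarised endothelium and 1 to 5 mitotic genes higher. With a prior of 2 CPM, 89 genes were at least 2-fold one way in all 3 animals (38 higher, 51 lower), and with 1 tumour of mutant 1 left out there were 102 to 198 (53 to 70 higher, 49 to 128 lower); this count was not made with an animal left out. These counts on lists, and those with a tumour left out, were added after seeing the data. None of the 80 genes named with a test changed direction in any alternative run, and 58 of them besides Ces1e passed the adjusted threshold in DESeq2. The naming rule took genes by a small p or 1 direction in these same data, which made a change of direction unlikely from the start. The 22 other named genes were not checked for a change of direction. Ces1e did not pass it in limma voom, with no replicate block, with tumours kept separate, at a minimum of 1.5-fold or with samples left out. Each animal gives 1 pair, so differences between animals cannot be tested.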
